A study of Mus musculus with 18 samples.

Results

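Accessible chromatin was compared between mouse cells, labelled pro-B, that lack Ebf1 (Ebf1-KO) and those that lack Pax5 (Pax5-KO), at sites that the transcription factors EBF1 and PAX5 bind. The comparison used 6 ATAC libraries, 3 per knockout, of the 18 samples in the series. The 3 wild-type (WT) ATAC libraries gave the reference level, and the 9 RNA libraries of the same genotypes gave the expression of the gene nearest to each site. The sites came from 3 tables of ChIP-seq peaks, which were stacked: 7815 sites bound by EBF1 and not PAX5 (EBF1-only), 5033 bound by PAX5 and not EBF1 (PAX5-only) and 1529 bound by both, 14377 in all. The binding sites stem from published ChIP-seq data that the submitters analysed again. All 3 groups of cells were labelled pro-B, on a C57BL6/J background, and were grown from the liver of WT, Ebf1-deficient or Pax5-deficient fetuses on OP9 stromal cells with KIT ligand, FLT3 ligand and interleukin 7. No label tells whether the 3 libraries of a genotype came from separate fetuses or cultures, so p-values measure only the spread between these libraries.

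EBF1 and PAX5 act in sequence in early B cell development. EBF1 binds DNA as a dimer on a palindrome, opens chromatin in lymphoid progenitors and turns on Pax5 and the genes of the pre-B cell receptor. PAX5, a paired-domain factor, holds cells to the B lineage and represses genes of other lineages, and pro-B cells that lack it keep the potential to form T and myeloid cells. ATAC-seq reads where a transposase can insert into DNA, so the tag count over a site measures how open it is.

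The DNA of 13 sites is shown, as the central 200 bases of each, from the plus strand of the RefSeq GRCm38 genome and written 5′ to 3′. Capitals mark the letters TCCC and GGGA with any 2 bases between them, the core of the EBF1 palindrome, and TGTGGT, the core that RUNX factors recognise, which reads ACCACA where it lies on the minus strand. The letters AGCNTGAC, part of the PAX5 paired-domain motif, were searched as well. Both strands were searched, and a match is a description of the letters and not evidence of binding. Of all 14360 site windows of this length, 15.3% held the EBF1 letters, 25.9% the RUNX letters and 5.0% the PAX5 letters. Among EBF1-only windows 25.3% held the EBF1 letters, so the lack of these exact letters is no evidence that a site is unbound. The first 7 sites were less open in Ebf1-KO than in Pax5-KO cells. They are 2 promoters and 5 of the 10 largest losses, and lie at the promoters of Igll1 (chr16:16864059-16864258) and Cd79a (chr7:24897288-24897487), in introns of Fmn2 (chr1:174652842-174653041) and Slc47a2 (chr11:61309970-61310169), upstream of Tmem64 (chr4:15252588-15252787) near the non-coding gene 1700011H14Rik (chr14:49300370-49300569) and at a site assigned to Glcci1 (chr6:8623194-8623393).
Igll1: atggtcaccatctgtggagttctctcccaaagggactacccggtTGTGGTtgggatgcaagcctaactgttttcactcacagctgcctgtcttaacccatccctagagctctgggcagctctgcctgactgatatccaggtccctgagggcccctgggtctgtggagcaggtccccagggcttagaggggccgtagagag
Cd79a: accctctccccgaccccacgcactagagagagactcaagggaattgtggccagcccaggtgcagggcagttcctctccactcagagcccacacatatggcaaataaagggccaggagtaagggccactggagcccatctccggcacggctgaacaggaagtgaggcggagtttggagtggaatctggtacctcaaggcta
Fmn2: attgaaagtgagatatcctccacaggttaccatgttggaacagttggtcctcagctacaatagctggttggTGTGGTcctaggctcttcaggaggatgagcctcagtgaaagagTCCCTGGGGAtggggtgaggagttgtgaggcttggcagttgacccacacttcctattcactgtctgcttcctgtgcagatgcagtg
Slc47a2: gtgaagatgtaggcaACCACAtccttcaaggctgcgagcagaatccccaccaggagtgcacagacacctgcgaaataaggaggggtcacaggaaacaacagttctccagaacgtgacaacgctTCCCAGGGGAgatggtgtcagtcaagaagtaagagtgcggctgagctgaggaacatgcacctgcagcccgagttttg
Tmem64: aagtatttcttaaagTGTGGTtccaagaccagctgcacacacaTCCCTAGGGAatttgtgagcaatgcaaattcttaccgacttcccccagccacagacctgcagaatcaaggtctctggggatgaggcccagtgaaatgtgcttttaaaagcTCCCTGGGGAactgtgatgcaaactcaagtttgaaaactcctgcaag
1700011H14Rik: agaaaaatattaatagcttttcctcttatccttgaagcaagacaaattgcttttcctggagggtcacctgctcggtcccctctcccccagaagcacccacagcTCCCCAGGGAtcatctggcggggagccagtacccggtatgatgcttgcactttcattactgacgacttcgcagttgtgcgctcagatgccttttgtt
Glcci1: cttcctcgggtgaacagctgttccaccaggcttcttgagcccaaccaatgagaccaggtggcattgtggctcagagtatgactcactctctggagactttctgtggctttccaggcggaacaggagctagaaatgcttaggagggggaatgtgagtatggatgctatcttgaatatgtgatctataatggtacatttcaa
The other 6 sites were more open in Ebf1-KO cells and are among the 10 largest gains. They lie near Bhlhe41 (chr6:145845684-145845883), Prdm1 (chr10:44429437-44429636), Pcdh9 (chr14:94068712-94068911) and Kcnj6 (chr16:95010140-95010339) and in introns of Lekr1 (chr3:65670395-65670594) and Itpr2 (chr6:146271236-146271435).
Bhlhe41: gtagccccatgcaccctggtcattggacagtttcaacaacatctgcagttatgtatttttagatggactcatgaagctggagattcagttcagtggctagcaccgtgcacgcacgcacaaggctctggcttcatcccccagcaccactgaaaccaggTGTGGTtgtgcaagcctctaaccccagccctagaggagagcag
Pcdh9: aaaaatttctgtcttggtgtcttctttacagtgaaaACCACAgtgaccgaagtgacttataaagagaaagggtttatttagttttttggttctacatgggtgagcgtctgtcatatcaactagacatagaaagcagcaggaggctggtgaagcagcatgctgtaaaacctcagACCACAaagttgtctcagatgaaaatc
Kcnj6: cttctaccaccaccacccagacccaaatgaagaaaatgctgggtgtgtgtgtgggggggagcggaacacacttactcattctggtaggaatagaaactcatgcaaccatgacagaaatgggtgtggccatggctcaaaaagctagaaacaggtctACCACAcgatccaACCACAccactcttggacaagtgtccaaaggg
Lekr1: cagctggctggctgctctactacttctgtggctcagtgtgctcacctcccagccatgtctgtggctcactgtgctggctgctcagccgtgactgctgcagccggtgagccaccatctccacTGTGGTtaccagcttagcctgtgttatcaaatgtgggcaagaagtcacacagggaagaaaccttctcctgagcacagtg
Itpr2: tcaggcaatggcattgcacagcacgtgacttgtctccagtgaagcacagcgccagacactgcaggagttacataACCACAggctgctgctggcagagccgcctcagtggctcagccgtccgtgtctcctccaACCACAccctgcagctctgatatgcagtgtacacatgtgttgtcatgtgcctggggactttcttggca
Prdm1: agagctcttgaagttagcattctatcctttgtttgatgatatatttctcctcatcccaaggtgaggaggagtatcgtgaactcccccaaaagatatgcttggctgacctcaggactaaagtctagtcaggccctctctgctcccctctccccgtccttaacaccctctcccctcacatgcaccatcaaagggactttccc
The sites shown were chosen after their letters were seen. Over all 10 largest losses, 4 held the EBF1 letters (Fmn2, Slc47a2, 1700011H14Rik and Tmem64, the last at 2 places) and 5 held the RUNX letters, among them Fmn2, Slc47a2 and Tmem64. Over all 10 largest gains, none held the EBF1 letters and 8 held the RUNX letters, with Prdm1 and Gpc5 the exceptions. The Igll1 promoter site held the RUNX letters and not the EBF1 letters, and the Cd79a and Glcci1 sites held neither.

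The knockout ATAC libraries held 23.0 to 37.7 M tags (M, mega) and the WT libraries 15.3 to 38.6 M. Values are tags per 10 M, on which 3 reads are worth 0.777 to 1.96. These floors cover counting error only. Tags in the bound sites made up 0.930 to 1.11% of an Ebf1-KO library, 0.825 to 1.02% of a Pax5-KO library and 1.52 to 2.31% of a WT library. Across sites, log2 values correlated at Pearson's r of 0.908 to 0.924 between Ebf1-KO libraries, 0.869 to 0.905 between Pax5-KO libraries and 0.750 to 0.788 between a library of each knockout, over 14365 sites that share the libraries' depth. The Pax5 transcript was at 13.1 ± 3.96 reads per 10 M (SD, n = 3) in Ebf1-KO, 109 ± 17.5 in Pax5-KO and 1521 ± 179 in WT RNA. The Ebf1 transcript was at 1465 ± 131 in Ebf1-KO, 1515 ± 170 in Pax5-KO and 3969 ± 634 in WT RNA, and as reads over all exons it cannot check a deletion of part of the gene. The B-lineage label was checked on 5 marker genes (Cd79a, Cd79b, Igll1, Vpreb1, Ms4a1). Their summed RNA was 14.7 to 20.9 reads per 10 M in Ebf1-KO libraries, 5354 to 8362 in Pax5-KO and 12324 to 13146 in WT, so these markers were near absent from the Ebf1-KO cells.

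Most bound sites were not called different between the knockouts. Among the called ones outside promoters, EBF1-bound sites were more often less open in Ebf1-KO than in Pax5-KO, and PAX5-only sites more often more open. Of 14365 sites tested, 3117 (21.7%) differed between the knockouts at an adjusted p under 0.05 in limma. Of these, 1301 (9.06%) were higher and 1816 (12.6%) lower in Ebf1-KO than in Pax5-KO. The libraries of the 2 knockouts did not overlap at 5158 sites (35.9%), called or not, against which non-overlap at a single site is to be read. All log2 differences given here are Ebf1-KO minus Pax5-KO, and the median over all sites was -0.02. Among EBF1-only sites 1333 of 7805 tested were lower and 397 higher, with a median of -0.15. Sites bound by both factors leaned the same way, with 360 of 1529 lower, 139 higher and a median of -0.17. PAX5-only sites went the other way, with 765 of 5031 higher, 123 lower and a median of 0.18. In bulk samples, fewer cells with an open site and less opening per cell cannot be told apart. The count of higher sites fell to 862 without Ebf1-KO library 2, 655 without Ebf1-KO library 3, 851 without Pax5-KO library 2 and 819 without Pax5-KO library 3. The same held for the 397 higher EBF1-only sites, which numbered 195, 120, 198 and 186 without those 4 libraries and 596 without WT library 2. Without Ebf1-KO library 3, 459 PAX5-only sites and 76 sites bound by both were called higher, and without Pax5-KO library 3, 91 sites bound by both.

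**Figure D1:**
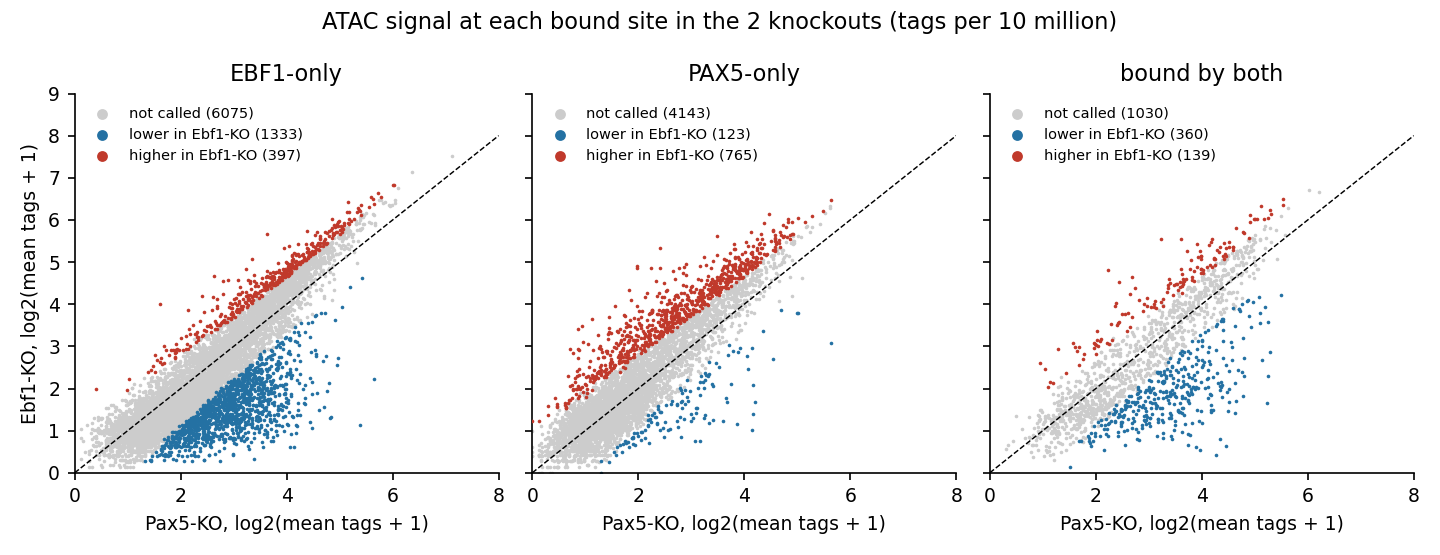
Each point is a site. The horizontal axis is its mean signal in Pax5-KO libraries and the vertical axis its mean in Ebf1-KO libraries, both as log2 of tags per 10 M plus 1, with 1 panel per class and the dashed line at equal values. Sites called lower (1333) outnumber those called higher (397) in the EBF1-only panel, and the order is turned in the PAX5-only panel (123 lower, 765 higher).

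The class means of single libraries showed the same order. Mean log2 signal over EBF1-only sites was 2.25, 2.28 and 2.33 in the Ebf1-KO libraries and 2.63, 2.53 and 2.46 in the Pax5-KO libraries. Over PAX5-only sites it was 2.09, 2.14 and 2.19 in Ebf1-KO against 1.99, 1.94 and 1.88 in Pax5-KO. Over sites bound by both it was 2.60, 2.63 and 2.70 in Ebf1-KO against 3.04, 2.90 and 2.85 in Pax5-KO. The groups overlapped in none of the 3 classes, and the Ebf1-KO libraries were the lower group at EBF1-only sites and sites bound by both and the higher group at PAX5-only sites. As a share of all tags, the order was not the same. EBF1-only sites took 0.564 ± 0.050% of the tags of Ebf1-KO libraries against 0.546 ± 0.061% for Pax5-KO (SD, n = 3), and sites bound by both 0.145 ± 0.013% against 0.146 ± 0.018%, with overlapping groups in both classes. PAX5-only sites took 0.309 ± 0.029% against 0.216 ± 0.024%, without overlap. In mean log2 signal, WT libraries were above both knockouts in every class, at 3.16 ± 0.18 (SD, n = 3) for EBF1-only, 3.10 ± 0.19 for PAX5-only and 4.38 ± 0.26 for sites bound by both.

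**Figure D2:**
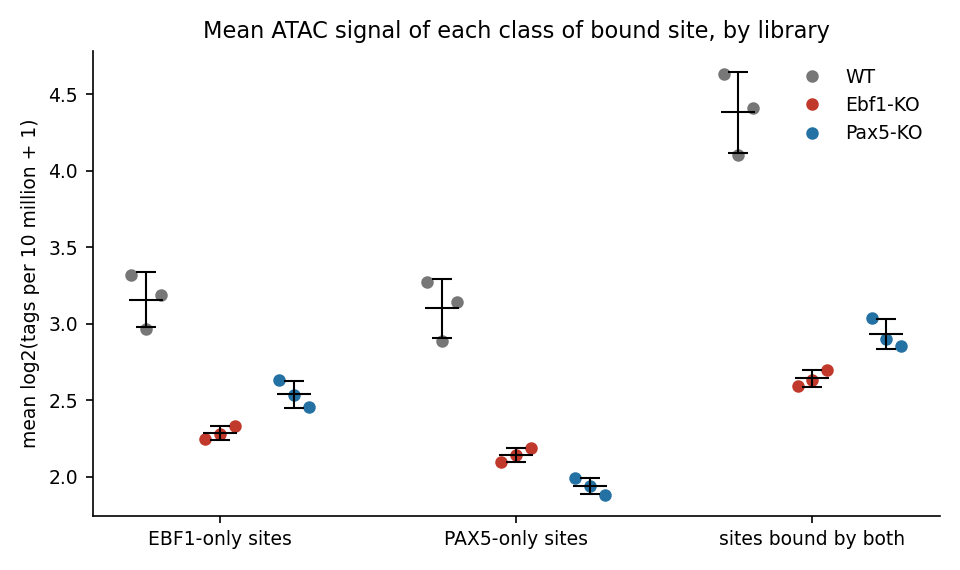
Mean log2 ATAC signal (vertical axis, log2 of tags per 10 M plus 1) over the sites of each class. Points are single libraries, bars are the mean and SD over 3 libraries, and the vertical axis does not start at 0. Ebf1-KO libraries lie below Pax5-KO libraries at EBF1-only sites and sites bound by both, above them at PAX5-only sites, and all lie below WT.

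The differences between the knockouts were -0.25 for EBF1-only, 0.20 for PAX5-only and -0.29 for sites bound by both, each with an exact two-sided permutation p of 0.1 over libraries (3 against 3), the smallest p this design allows (adjusted p 0.1 over 6 such tests). The EBF1-only mean was above the PAX5-only mean of the same library by 0.15 ± 0.005 in Ebf1-KO, 0.60 ± 0.04 in Pax5-KO and 0.06 ± 0.02 in WT libraries. This within-library contrast, in which a factor per library cancels on the log scale apart from the added 1, differed by -0.46 between the knockouts (exact permutation p 0.1). Sites bound by both exceeded EBF1-only sites by 0.36 in Ebf1-KO against 0.39 in Pax5-KO, with WT at 1.23. Over sites more than 1 kb from a start site, that small difference between the knockouts turned from -0.04 to 0.10. The direction at PAX5-only sites depended on the scaling. The PAX5-only median was 0.17 under TMM on all sites, 0.34 under quantile normalization, 0.22 under edgeR and 0.29 under DESeq2. When libraries were scaled by TMM on promoter sites alone, an alternative chosen after seeing the data, the PAX5-only difference was -0.03 (exact permutation p 0.4), 553 PAX5-only sites were higher and 332 lower, and the median of all sites moved to -0.27.

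The 2 directions differed in where they lay relative to genes. In the deposited annotation, 1467 tested EBF1-only sites lay at promoters, and of these 190 were higher and 49 lower in Ebf1-KO, with a median of 0.32. The 6338 other EBF1-only sites had 207 higher and 1284 lower calls and a median of -0.29. The promoter result depended on the scaling. With quantile normalization it was 66 higher and 57 lower. TMM on all sites gave 394 higher and 68 lower, edgeR 387 and 65, and DESeq2 361 and 38. TMM on promoter sites gave 107 higher, 131 lower and a median of 0.01. That scaling sets promoters level by design, so it cannot test their direction. Away from promoters, the lower calls outnumbered the higher ones, by 2040 to 111 under TMM on promoter sites and by 1032 to 220 under quantile normalization. PAX5-only sites had 43 higher and 6 lower calls at 258 promoters and 722 higher and 117 lower calls at 4773 other sites. Sites bound by both had 7 higher and 8 lower calls at 83 promoters and 132 higher and 352 lower calls elsewhere.

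The strength of the authors' ChIP peak score went with the difference at EBF1-only sites. When EBF1-only sites were ranked by that score and cut into 4 groups of equal size, the share lower in Ebf1-KO was 6.56% in the weakest group, then 12.1%, 18.0% and 31.6% in the strongest. The share higher in Ebf1-KO was 8.10% in the weakest and 3.18% in the strongest group. PAX5-only sites showed no such order, with 14.6%, 14.2%, 17.1% and 14.9% higher from the weakest to the strongest group. Signal moved along with the score: median WT signal at EBF1-only sites was 5.78 tags per 10 M in the weakest and 12.2 in the strongest group, and the part of this in the result was not tested.

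Called sites were also set against WT. The call itself fixes which knockout is the lower at a site, so only the levels against WT are described. At EBF1-only sites that were lower, median signal was 1.73 tags per 10 M in Ebf1-KO against 6.76 in Pax5-KO, with WT at 10.4. Sites bound by both that were lower had medians of 2.51, 9.67 and 22.8 in the same order. At PAX5-only sites that were higher, the median was 13.2 in Ebf1-KO against 5.31 in Pax5-KO, with WT at 14.9. Over all 1816 lower sites, Ebf1-KO signal had a median of 16.4% of the WT mean and Pax5-KO signal 59.4%. Ebf1-KO signal was under 25% of WT at 1267 of them (69.8%), against 168 (9.25%) for Pax5-KO. Over all 1301 higher sites, the medians were 98.1% of WT in Ebf1-KO against 47.4% in Pax5-KO, and Ebf1-KO signal reached the WT mean or more at 624 (48.0%).

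Promoter sites of Igll1, Vpreb1, Cd79a and Pou2af1 were less open in Ebf1-KO than in Pax5-KO cells, while the highest sites of Vpreb3 and Cd79b were not called. Igll1 and Vpreb1 code for the surrogate light chain, which pairs with the heavy chain in the pre-B cell receptor. At the Igll1 promoter site (chr16:16863976-16864343), bound by both factors, signal was 3.5, 5.75 and 3.84 tags per 10 M in the Ebf1-KO libraries against 26.8, 17.8 and 20.9 in Pax5-KO, with WT at 75.8, 53.6 and 58.3. The 3 genotypes did not overlap there, and Ebf1-KO was the lowest. Its log2 difference, on the log2(tags + 1) scale that understates changes at low signal, was -2.09 ± 0.26 (SE, adjusted p 4.38e-10, limma). At the Vpreb1 promoter site (chr16:16869230-16869478), a PAX5-only site, signal was 1.56, 0.61 and 1.92 in Ebf1-KO against 17.6, 8.22 and 7.38 in Pax5-KO, with WT at 24.2, 13.1 and 17.9. The knockouts did not overlap, while Pax5-KO library 1 reached into the WT range (log2 difference -2.30 ± 0.31, adjusted p 4.15e-09, limma).

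The same pattern was seen at Cd79a, which codes for the Ig-alpha signalling chain, and at Pou2af1, whose product assists octamer factors in B cells. At the Cd79a promoter site (chr7:24897241-24897535), bound by both factors, signal was 2.34, 2.72 and 3.20 in Ebf1-KO against 14.1, 12.2 and 12.6 in Pax5-KO, with WT at 52.9, 34.2 and 43.8. Every Pax5-KO library was above every Ebf1-KO library and below every WT library (log2 difference between the knockouts -1.90 ± 0.27, adjusted p 1.65e-08, limma). At the Pou2af1 promoter site (chr9:51213082-51213370), also bound by both, signal was 0.78, 0.61 and 1.28 in Ebf1-KO against 12, 14.6 and 10.4 in Pax5-KO, with WT at 34.6, 41.3 and 41.4, and the 3 genotypes did not overlap. The difference of -2.82 ± 0.28 (adjusted p 6.38e-14, limma) was the largest among the sites of the key genes. These 4 calls, at Igll1, Vpreb1, Cd79a and Pou2af1, held in every alternative tried. Igll1, Cd79a and Pou2af1 each had 2 sites, of which only 1 was called, and Vpreb1 had 1 site.

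RNA of these genes also differed. Igll1 RNA was 9.06 reads per 10 M in Ebf1-KO against 4428 in Pax5-KO, with WT at 7560. Pou2af1 RNA was 9.84, 7872 and 20457 in the same order, Vpreb1 RNA 1.73, 1007 and 1306, and Cd79a RNA 1.88, 227 and 2226. The sites with the highest signal near Vpreb3, Cd79b and Ikzf3 were not called (adjusted p 0.388, 0.818 and 0.647), while RNA of all 3 genes was lower in Ebf1-KO (adjusted p 3.43e-10, 1.35e-13 and 1.76e-10, limma).

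**Figure D3:**
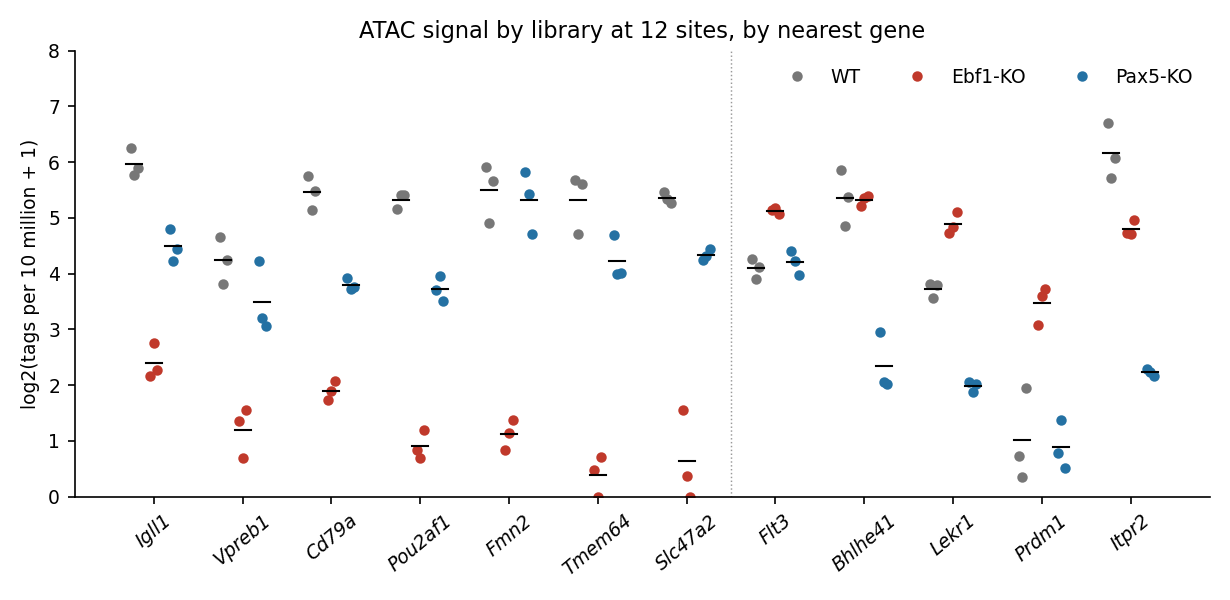
ATAC signal (vertical axis, log2 of tags per 10 M plus 1) at 12 sites named by their nearest gene. Points are single libraries and lines are group means. Left of the dotted line Ebf1-KO libraries are the lowest of the 3 genotypes, and right of it Pax5-KO libraries lie below Ebf1-KO libraries.

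At other regulators, sites near the same gene went different ways. Foxo1, a factor that turns on the recombinase genes, had 4 of 12 sites lower and none higher. The Foxo1 site with the largest difference, PAX5-only (chr3:52400333-52400581), had 1.56, 0.91 and 3.20 in Ebf1-KO against 10.6, 5.30 and 6.52 in Pax5-KO, with WT at 28.1, 15.1 and 15, without overlap between genotypes (-1.58 ± 0.31, adjusted p 4.64e-05). The calls of the other 3 Foxo1 sites did not hold when single libraries were left out. The EBF1-only site lost its call without Ebf1-KO library 3 (adjusted p 0.077), and the site bound by both without Ebf1-KO library 2 or Pax5-KO library 1 or 2 (highest adjusted p 0.25). The other PAX5-only site lost it without Ebf1-KO library 2 or 3 or Pax5-KO library 1 or 2, and under DESeq2, quantile normalization and a pseudocount of 5 (highest adjusted p 0.12). Lef1, a DNA-binding partner of beta-catenin, had 2 called sites of 8, in opposite directions, that lie less than 3 kb apart. The EBF1-only Lef1 site (chr3:131054614-131054884) had 1.17, 1.51 and 1.60 in Ebf1-KO against 7.41, 8.48 and 8.25 in Pax5-KO, with WT at 50.3, 28.2 and 37.3 (-1.90 ± 0.29, adjusted p 8.75e-08). The Lef1 site bound by both (chr3:131057240-131057538) had 23.4, 31.2 and 27.5 in Ebf1-KO against 13.8, 11.1 and 13 in Pax5-KO, with WT at 47.0, 30.5 and 37.8 (1.05 ± 0.26, adjusted p 0.00128). Neither of these Lef1 sites had overlapping knockout groups, which was also so at 35.9% of all sites. Lef1 RNA was 28.4 in Ebf1-KO against 214 in Pax5-KO, with WT at 1556.

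Tcf7, which codes for the T cell factor TCF1, also had calls in both directions, with 1 of 3 sites higher and 1 lower. Its EBF1-only intron site had 1.56, 1.51 and 0.32 in Ebf1-KO against 3.17, 3.71 and 6.95 in Pax5-KO, and its PAX5-only intron site 9.35, 9.38 and 10.6 in Ebf1-KO against 4.59, 5.83 and 3.91 in Pax5-KO. Neither pair of groups overlapped, but the call at the PAX5-only site was lost without Ebf1-KO library 3 or Pax5-KO library 3 (highest adjusted p 0.057). Blk, a Src-family kinase of B cells, had an EBF1-only site that was lower (-1.43 ± 0.38, adjusted p 0.00274) and a PAX5-only promoter site that was higher (1.05 ± 0.32, adjusted p 0.0105), which was lost without Ebf1-KO library 2 or 3 or Pax5-KO library 2 (highest adjusted p 0.073). No other of the 5 Blk sites was called. Blk RNA was 0.444 in Ebf1-KO against 54.5 in Pax5-KO. A PAX5-only site near Irf4, a factor of pre-B cell differentiation, overlapped between Ebf1-KO and WT, with 16.4, 16.6 and 15.7 in Ebf1-KO against 10.9, 6.10 and 5.65 in Pax5-KO, with WT at 15, 15.1 and 16.6 (1.06 ± 0.27, adjusted p 0.00182). Of 5 Irf4 sites, this was the only one called. Irf4 RNA went the other way, at 81.7 in Ebf1-KO against 373 in Pax5-KO, with WT at 3177.

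Of 35 sites of stem and progenitor genes, 5 were higher and 5 lower. An intron site of Flt3, the FLT3 ligand receptor of early progenitors, had 34.3, 35.1 and 32.6 in Ebf1-KO against 20.1, 17.8 and 14.8 in Pax5-KO, with WT at 18.3, 14 and 16.3. Ebf1-KO was above both other genotypes, which overlapped (0.93 ± 0.26, adjusted p 0.0048). Under quantile normalization the Flt3 call was lost (adjusted p 0.072). Flt3 RNA was 2361 in Ebf1-KO against 917 in Pax5-KO, with WT at 8.46. A PAX5-only site of the survival gene Bcl2 had 1.17, 2.12 and 2.88 in Ebf1-KO against 3.53, 6.36 and 6.95 in Pax5-KO, with WT at 29.4, 17.9 and 28.7 (-1.11 ± 0.30, adjusted p 0.00401), while Bcl2 RNA was 6758 in Ebf1-KO against 2025 in Pax5-KO, with WT at 350. A distant site assigned to the T cell factor Gata3 was higher at an adjusted p of 0.0362, a call that 5 of the leave-out fits, DESeq2 and the promoter scaling did not keep (highest adjusted p 0.20). No site of Pax5, Blnk, Bach2, Rag1, Dntt, Id2, Notch1, Kit, Il7r or Myc was called, and neither Ebf1 nor Erg was the nearest gene of any site.

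The largest losses in Ebf1-KO were at EBF1-bound sites far from promoters. The largest was the intronic Fmn2 site, EBF1-only, in a gene for an actin-nucleating formin. It had 0.78, 1.21 and 1.60 in Ebf1-KO against 55.4, 41.9 and 25.2 in Pax5-KO, with WT at 59.5, 29.1 and 49.7. Pax5-KO and WT libraries overlapped, and Ebf1-KO was below both (-4.20 ± 0.28, adjusted p 1.08e-22, limma). Fmn2 RNA was listed at 0 in Ebf1-KO and at 0.265 in Pax5-KO, too low to be tested. The Tmem64 site, bound by both, had 0.39, 0 and 0.64 in Ebf1-KO against 25.0, 14.8 and 15.2 in Pax5-KO, with WT at 50.3, 25.1 and 47.6, and the Ebf1-KO values lay under the worth of 3 reads (-3.84 ± 0.29, adjusted p 2.59e-19). The Slc47a2 intron site, bound by both, in a gene for an organic cation exporter, had 1.95, 0.30 and 0 in Ebf1-KO against 18.0, 18.8 and 20.9 in Pax5-KO, with WT at 43.1, 39.6 and 37.5 (-3.69 ± 0.29, adjusted p 8.23e-19). No 2 genotypes overlapped at either site, although Pax5-KO library 1 and WT library 2 lay close at the Tmem64 site.

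The next sites in size were assigned to Gm2447 (-3.76), Glcci1 (-3.61), Lrrk2 (-3.56), Snord17 (-3.53), St18 (-3.52), Arhgap12 (-3.51) and 1700011H14Rik (-3.49). All 10 sites were EBF1-only or bound by both, the classes that held 1333 and 360 of the 1816 lower sites. RNA of the nearest gene did not follow in all of them. Lrrk2, a leucine-rich repeat kinase, had 0.207 reads per 10 M in Ebf1-KO against 24.1 in Pax5-KO, with WT at 251. Glcci1 had 2.11, 119 and 652 in the same order. St18, a zinc-finger factor, had more RNA in Ebf1-KO, at 44 against 13.7 in Pax5-KO and 3.79 in WT. The non-coding 1700011H14Rik had RNA at 575 in Pax5-KO and next to none in Ebf1-KO (0.783) or WT (1.61), although its site was most open in WT, at 54.2, 19.1 and 44.8, against 15.2, 14.6 and 14.3 in Pax5-KO and 0.39, 0 and 0.96 in Ebf1-KO.

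The largest gains in Ebf1-KO over Pax5-KO were at PAX5-bound sites in 9 of 10 cases. Of all 1301 higher sites, 765 were PAX5-only and 139 bound by both, so most higher sites were PAX5-bound as well. At 9 of the 10 the Ebf1-KO libraries overlapped the WT libraries or exceeded them. The largest was an intergenic PAX5-only site near Bhlhe41, a helix-loop-helix repressor, with 36.2, 40.2 and 41.3 in Ebf1-KO against 6.70, 3.18 and 3.04 in Pax5-KO, with WT at 56.8, 27.9 and 40.4. Ebf1-KO lay within the WT range and only Pax5-KO was low (2.99 ± 0.27, adjusted p 1.12e-15, limma). Bhlhe41 RNA was 155 in Ebf1-KO against 1.54 in Pax5-KO, with WT at 95.9. The Lekr1 intron site had 25.7, 27.5 and 33.3 in Ebf1-KO against 3.17, 2.65 and 3.04 in Pax5-KO, with WT at 13.1, 10.8 and 12.9, so that Ebf1-KO was above WT and Pax5-KO below it (2.91 ± 0.27, adjusted p 3.67e-15). The Itpr2 intron site, bound by both, in the gene of a calcium release channel, had 25.7, 25.1 and 30.1 in Ebf1-KO against 3.88, 3.71 and 3.48 in Pax5-KO, with WT at 103, 51.9 and 66.0 (2.57 ± 0.26, adjusted p 2.31e-13). Ebf1-KO was in between there, and no 2 genotypes overlapped.

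Prdm1 codes for the repressor BLIMP-1, which drives plasma cell formation. A PAX5-only site 29211 bases from its start was nearly closed in WT, at 0.65, 0.28 and 2.85, and in Pax5-KO, at 0.71, 1.59 and 0.43, and was at 7.40, 11.2 and 12.2 in Ebf1-KO. Ebf1-KO was above both other genotypes, which overlapped (2.58 ± 0.38, adjusted p 7.04e-08). Prdm1 RNA was 10.5 in Ebf1-KO against 0.095 in Pax5-KO, with WT at 0.235. The site near Pcdh9, a protocadherin, was higher in Ebf1-KO (24.9, 23.6 and 35.2 against 6.35, 5.30 and 1.30, with WT at 32.7, 18.5 and 24.3), while Pcdh9 RNA was lower, at 2.15 in Ebf1-KO against 208 in Pax5-KO, with WT at 435. The other 5 of the 10 largest gains were assigned to Gpc5 (2.89), Wdsub1 (2.70), Capn13 (2.65), Kcnj6 (2.55) and Whrn (2.53). The Whrn site alone among the 10 was EBF1-only. Every one of the 20 sites with the largest changes kept its call in every alternative tried. These sites were chosen for large differences without overlap, so this says little about other sites. Of the 112 called sites among all those named, 43 lost the call in at least 1 alternative.

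Sites were then counted by gene lists, which can be read only against 9.06% higher and 12.6% lower over all sites. Of 63 sites of pre-B and B cell receptor genes, 16 were lower and 4 higher, with a median of -0.29, and the median was below 0 under all 5 other scalings and tools tried. The 4 higher sites included one near Fcrla, an Fc receptor-like gene of B cells, with 8.96, 6.05 and 7.36 in Ebf1-KO against 1.41, 1.86 and 2.61 in Pax5-KO, with WT at 83.0, 47.3 and 72.2 (1.52 ± 0.28, adjusted p 9.19e-06). The 56 sites of PI3K, Ras and calcium signalling genes had 11 lower and 7 higher calls and a median of -0.18, also below 0 throughout. Among them, a site bound by both in Sh3kbp1, an adaptor of B cell receptor signalling, had 3.89, 3.33 and 2.56 in Ebf1-KO against 22.6, 15.1 and 22.1 in Pax5-KO (-2.29 ± 0.27, adjusted p 4e-11). A PAX5-only promoter site of Rasgrp3, an activator of Ras, was lower as well (-1.18 ± 0.28, adjusted p 0.000896), and Rasgrp3 RNA was 4.25 in Ebf1-KO against 1888 in Pax5-KO, with WT at 74.5.

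The other lists had smaller or even splits. B-lineage transcription factors had 9 lower and 5 higher of 86 sites, cytokine signalling genes 5 lower and 4 higher of 49, and adhesion and homing genes 5 and 5 of 48. T lineage genes had 3 lower and 3 higher of 30 sites, dendritic cell genes 2 and 3 of 22, myeloid genes 2 and 0 of 11, V(D)J recombination genes 1 and 3 of 22, cell cycle genes 0 and 2 of 15, housekeeping genes 2 and 2 of 11 and stromal genes 1 and 1 of 6. None of the 9 sites of NK and innate lymphoid genes was called. The sign of the median changed with the scaling in all of these lists except NK (below 0) and stroma (above 0). Of the sites that were higher, one near Thy1, a T cell and progenitor surface marker, had 12.5, 8.17 and 11.2 in Ebf1-KO against 6, 2.65 and 3.04 in Pax5-KO (1.29 ± 0.29, adjusted p 0.00043), and one in Ccr2, a chemokine receptor, had 12.8, 19.1 and 22.7 in Ebf1-KO against 10.9, 6.63 and 6.08 in Pax5-KO (1.12 ± 0.28, adjusted p 0.00136). Thy1 RNA was 500 in Ebf1-KO against 13.5 in Pax5-KO, and Ccr2 RNA 640 and 24.3. A myeloid site, upstream of the growth factor receptor gene Csf1r, was most open in Pax5-KO, at 12, 14.8 and 8.69, against 3.5, 4.24 and 2.88 in Ebf1-KO and 5.23, 2.85 and 5.18 in WT (-1.48 ± 0.31, adjusted p 0.000142).

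Markers of other cells moved with the comparison in RNA. The summed RNA of 7 myeloid markers was 1130 to 1358 reads per 10 M in Ebf1-KO libraries, 172 to 239 in Pax5-KO and 7.75 to 17.1 in WT, and of the 6 tested, 4 were higher and 1 lower in Ebf1-KO. The 6 T lineage markers summed to 365 to 447, 205 to 307 and 27.8 to 37.6 in the same order (2 of 3 tested higher, 3 with the replicate number as a block), and the 5 NK markers to 297 to 319, 67.5 to 89.9 and 4.49 to 6.82 (all 4 tested higher). The 8 stroma and fibroblast markers summed to 393 to 468, 82.0 to 236 and 139 to 321 (1 higher, 1 lower). Pdgfrb made up most of the Ebf1-KO sum, and the other 7 summed to 19.8 to 110, 52.1 to 213 and 139 to 320. Tyrobp made up most of the myeloid sum in Ebf1-KO, at a mean of 835 against 121 in Pax5-KO. Lyz2 went the other way (1.97 against 6.80), and Csf1r was alike (3.42 against 3.63). Lck made up most of the T lineage sum, at 287 against 216 (adjusted p 0.092, limma without the block). Cd3e, Cd3d and Ptcra had means of at most 2.34 in either knockout. None of these markers was at 0 in all knockout libraries, and their part in the ATAC differences was not tested. RNA of Xist, expressed from an inactive X chromosome, was 45559 in Ebf1-KO against 19.8 in Pax5-KO, with WT at 28.4, so sex and genotype cannot be told apart. Without sites on X and Y, 3075 of 14192 sites were called, 1275 higher and 1800 lower.

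Some genes gathered several called sites, to be read against 9.06% higher and 12.6% lower over all sites. They were picked for the most called sites, a number that genes with many sites reach more easily. In the direction higher in Ebf1-KO these were Pcdh9 (4 of 8 sites) and Tgfbr2, a TGF-beta receptor (4 of 14, with 2 others lower), then Cds2 (3 of 5), Fam49b (3 of 7) and Gm12596 (3 of 4), the last 3 taken alphabetically among genes with 3. In the direction lower they were 4930515G16Rik (8 of 27), Ank2 (4 of 6), Arid1b, a subunit of the BAF chromatin remodeller (4 of 11), Ephb4, a receptor of ephrins (4 of 6), and Foxo1, of which the last 4 were taken alphabetically among genes with 4. An Ank2 site bound by both, 1682 bases from a start site, had 2.73, 3.93 and 2.24 in Ebf1-KO against 31.4, 19.6 and 14.3 in Pax5-KO, with WT at 45.1, 23.1 and 32.1 (-2.47 ± 0.28, adjusted p 9.33e-12). Ephb4 RNA was 0.665 in Ebf1-KO against 140 in Pax5-KO, whereas Ank2 RNA was under 1 read per 10 M in both knockouts. The sites assigned to 4930515G16Rik stretch over the immunoglobulin kappa locus. Not all calls at these 10 genes were stable. At each gene except Ephb4, at least 1 of the called sites lost its call in at least 1 alternative, and an Arid1b site lost it in 8.

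Sites called in the 2 directions differed in the letters they held. To keep promoters apart, shares were taken over sites outside promoters. The EBF1 letters were held by 34.3% of lower, 27.7% of uncalled and 7.80% of higher EBF1-only sites. At sites bound by both the shares were 25.9%, 9.36% and 2.27%, and at PAX5-only sites 3.42%, 0.69% and 0%. The RUNX letters went the other way at PAX5-only sites, with 25.6% of lower, 30.2% of uncalled and 55.5% of higher sites. Sites bound by both held the RUNX letters in 38.9%, 35.9% and 51.5%, and EBF1-only sites in 24.9%, 19.3% and 32.7%. The PAX5 letters were held by 6.84% of lower, 9.66% of uncalled and 7.34% of higher PAX5-only sites. GC content was alike, with a median of 51.5% in lower, 50.5% in uncalled and 51.0% in higher windows of all classes, promoters included.

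Read from the letters to the calls, 184 sites bound by both held the EBF1 letters outside promoters, and 91 of these (49.5%) were lower and 3 higher in Ebf1-KO. Of the 1262 without these letters, 261 (20.7%) were lower and 129 higher. Of 1620 PAX5-only sites with the RUNX letters, 401 (24.8%) were higher, against 321 of 3153 (10.2%) without them. The letters GAGGAAGT, known for PU.1 and SPIB and held by 4.94% of all windows, were in 260 PAX5-only sites, of which 77 (29.6%) were higher. Of the 4513 PAX5-only sites without GAGGAAGT, 645 (14.3%) were higher. Median WT signal was 13.1 tags per 10 M with these letters and 7.15 without them, and the part of signal in the calls was not tested. The E-box CAGGTG, known for E proteins and held by 19.6% of all windows, was in 41% of the 117 lower PAX5-only sites, 22.2% of the uncalled and 17.9% of the higher ones. Signal moved with the letters too: PAX5-only sites with the RUNX letters had a median of 4.07 tags per 10 M in Ebf1-KO against 3.14 in Pax5-KO, with WT at 9.16. Without the letters these medians were 1.97, 1.99 and 6.51. RNA of the RUNX factors differed between the knockouts. Runx2 RNA was 2499 in Ebf1-KO against 1379 in Pax5-KO, with WT at 10.7 (adjusted p 0.000923), Runx3 RNA 779, 460 and 147 (adjusted p 0.0143) and Runx1 RNA 2246, 3531 and 2159 (adjusted p 0.0019, limma), and their part in the ATAC differences was not tested.

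**Figure D4:**
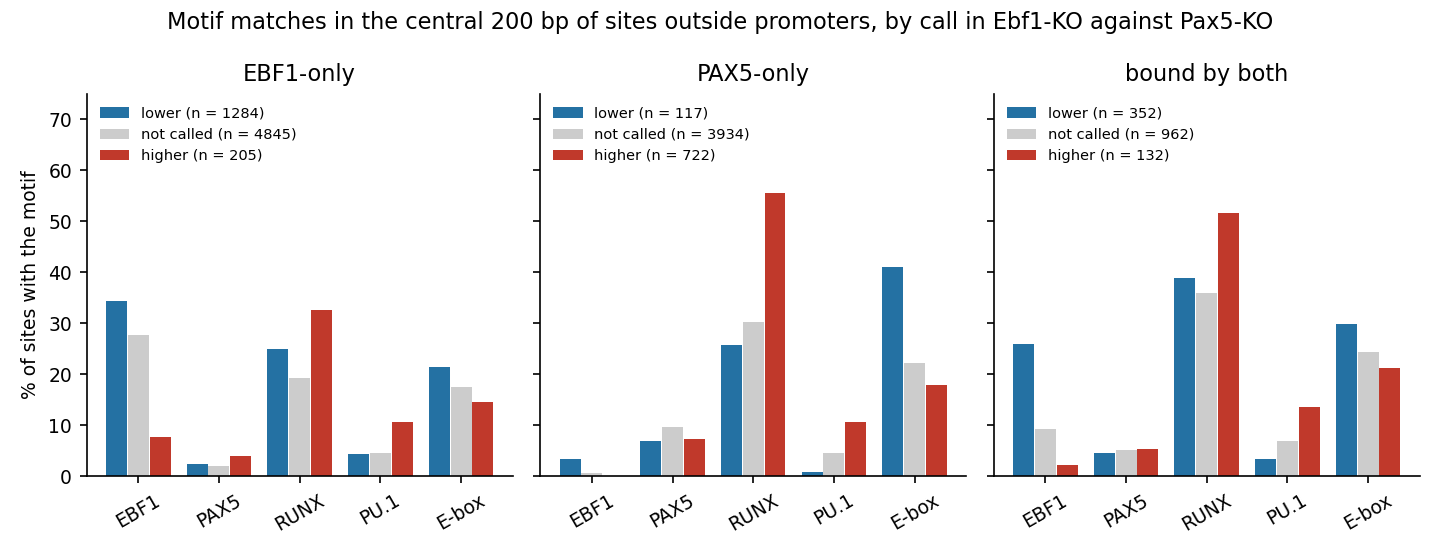
Share of sites outside promoters (vertical axis, %) whose central 200 bases hold each motif on either strand, by class (panels) and by call of Ebf1-KO against Pax5-KO (colours). Bars are single shares without error bars. The EBF1 motif is most frequent at lower sites (34.3% of EBF1-only), and the RUNX motif at higher sites (55.5% of PAX5-only).

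At called sites, RNA of the nearest gene was more often called in the direction of the site than in the other direction, but at most called sites it was not called in the same direction. In RNA, 3962 of 12839 genes (30.9%) differed between the knockouts, 2250 (17.5%) higher and 1712 (13.3%) lower in Ebf1-KO. Same-numbered RNA libraries deviated together, and with the number as a block 5622 genes (43.8%) differed, 3188 (24.8%) higher and 2434 (19.0%) lower. The nearest gene was tested in RNA for 10245 sites. At 1232 lower sites, RNA of the nearest gene was lower for 468 (38%) and higher for 213 (17.3%). At 963 higher sites it was higher for 280 (29.1%) and lower for 146 (15.2%). At 8050 uncalled sites it was lower for 1444 (17.9%) and higher for 1739 (21.6%). With the block, the same-direction shares were 44.7% at lower and 38.2% at higher sites, against 24.2% lower and 28.9% higher at uncalled sites. Within 10 kb of the start site, the same-direction share was 47.4% of 365 lower sites and 24.0% of 433 higher sites, against 14.8% lower and 18.5% higher at 3712 uncalled sites. Counting each gene once, by its site of highest mean signal, gave 38.3% and 28.1%. Across the 10245 sites, log2 differences in ATAC and RNA had a Spearman's rho of 0.17 and a Pearson's r of 0.19, where sites near 1 gene share its RNA value.

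**Figure D5:**
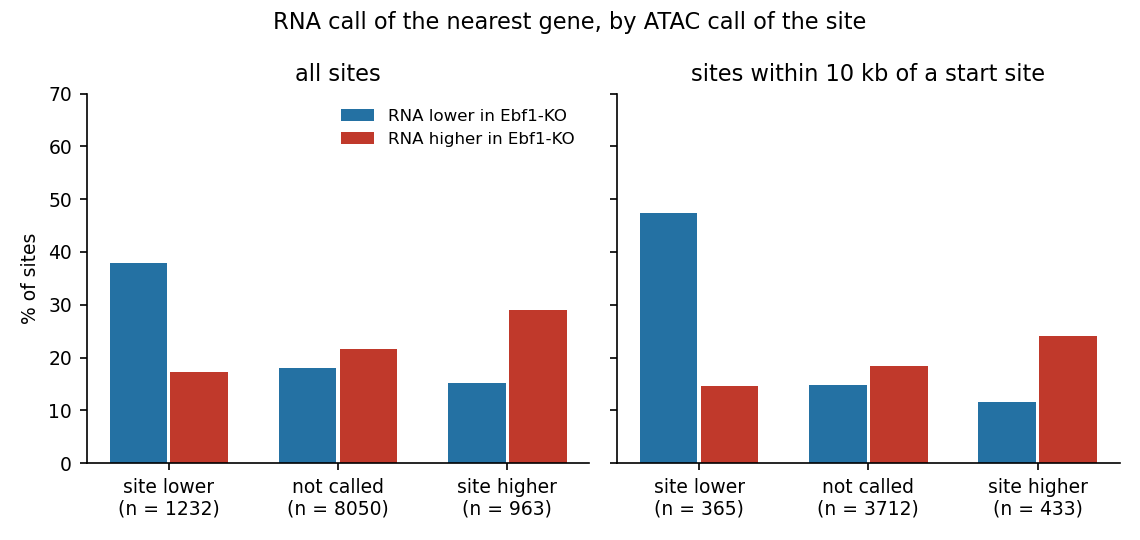
Share of sites (vertical axis, %) whose nearest gene had lower or higher RNA in Ebf1-KO than in Pax5-KO, by the ATAC call of the site, for all sites and for sites within 10 kb of a start site. Bars are single shares without error bars. Lower sites have the largest share of genes with lower RNA (38% of all, 47.4% within 10 kb).

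By class, these shares were as follows. Of 88 lower PAX5-only sites with a tested gene, 47 (53.4%) had lower RNA and 13 higher. Lower RNA was found at 326 of 907 lower EBF1-only sites (35.9%) and at 95 of 237 lower sites bound by both (40.1%). Of 101 higher sites bound by both, 43 (42.6%) had higher RNA, against 170 of 532 (32%) at PAX5-only and 67 of 330 (20.3%) at EBF1-only sites. At uncalled sites of the same 3 classes, higher RNA was found for 25.4%, 24.0% and 19.4%. The EBF1-only share of higher RNA was thus near its background in this fit without the block. With the block it was 31.8% at higher against 26.9% at uncalled EBF1-only sites. Without the block, lower RNA was found at 8.79% of higher EBF1-only sites, under the share at uncalled ones. Lower RNA was found at 20.2% of uncalled PAX5-only sites, 16% of uncalled EBF1-only sites and 21.2% of uncalled sites bound by both. No test was made between these shares, since sites near a gene share it.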

How the data were processed

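Accessible chromatin was measured in 9 ATAC libraries and RNA in 9 RNA libraries of WT, Ebf1-KO and Pax5-KO cells labelled pro-B, grouped by the genotype and number in their titles. Per the file headers, the authors' ATAC tables hold the signal per ChIP-seq peak, as tags scaled to 10 M (M, mega) per library, with the peak score from the authors, the nearest gene and its distance as other columns. The gene table deposited by the authors holds the signal over exons per gene, scaled to 10 M reads. Per the submitters' processing notes, ATAC reads were processed with Bowtie2 and HOMER and RNA reads with TopHat, HOMER, edgeR and DESeq2, on mm10 (GRCm38), and the sources used here do not give their versions.

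Sites with at least 10 reads over 9 libraries were kept (14365 of 14377, 12 left out), and 12839 RNA genes. log2(value + 1) was fitted by limma with an intensity trend, with 1 mean per genotype over 9 libraries, and the contrast Ebf1-KO minus Pax5-KO was adjusted by Benjamini-Hochberg over all sites or genes. WT libraries thus shared in the estimate of the spread. Class means were compared by exact two-sided permutation of the 6 knockout libraries. Divided by the worth of 1 read (for RNA, estimated from low values), 100% of ATAC values were whole reads within the rounding of the tables (0.0077 to 0.019 reads), and 99.9 to 100% of RNA values within 0.1 reads, and edgeR's quasi-likelihood test on these reads called 3814 sites and 5184 genes. The limma fit was tested on simulated data. Nearest genes are those of the deposited annotation. Motifs were searched in the central 200 bases of GRCm38 from RefSeq.

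Sites were named by 4 rules: the highest site and all called sites of 28 key genes, the 10 largest non-overlapping changes in each direction with at least 10 tags in the higher group, up to 4 called sites per gene list, and the 5 genes with most called sites. One of the key genes is not reported here. The members, lists and tests were chosen with earlier results of these data known. Same-numbered knockout RNA libraries deviated together (r 0.25 to 0.44) and ATAC libraries did not (r -0.05 to 0.01), so by these deviations the numbers pair the RNA libraries only. With the replicate block, RNA calls rose from 3962 to 5622. Alternatives were other scalings, pseudocounts and filters, edgeR, DESeq2, the block, and leaving out each library. Tests were run in limma 3.58.1, DESeq2 1.42.0 and edgeR 4.0.16 under R 4.3.3, and in SciPy 1.17.1 under Python 3.11.15.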

Additional observations from a re-analysis of the deposited data

How the results depend on the processing

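No call of the 3117 sites turned direction under any alternative run. The share that kept the same call was lowest without Ebf1-KO library 3 (66.9%). Leaving out 1 library at a time gave 2164 to 3614 calls in all, with 655 to 1661 higher, 120 to 596 higher EBF1-only, 459 to 876 higher PAX5-only and 76 to 189 higher sites bound by both, and 3353 to 4226 RNA genes. TMM on promoter sites alone, chosen after seeing the data, gave 876 higher and 3081 lower sites, so that 22.1% of calls were higher against 41.7%, and moved the median of all sites from -0.02 to -0.27. It gave 218 higher and 2171 lower EBF1-only sites, 332 lower PAX5-only sites and 578 lower sites bound by both, and turned the PAX5-only class mean to -0.032. Under TMM on all sites there were 714 higher EBF1-only and 185 lower PAX5-only sites, under edgeR 684 higher EBF1-only, and under DESeq2 610 higher EBF1-only and 80 lower PAX5-only, with 52.3% of calls higher. Over sites more than 1 kb from a start site, both minus EBF1-only turned to 0.10. The share of called sites with RNA in the same direction was 24.0% for higher and 47.4% for lower sites within 10 kb. The cause was not tested for any of these shifts.

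With the replicate number as a block, 3136 sites were called, 1278 higher and 1858 lower, and 5622 RNA genes. The numbers did not pair the ATAC libraries (r -0.05, 0.01 and -0.03). Of 112 called sites among the 127 named, 69 kept their call in every alternative, 43 lost it in at least 1 and none reversed. No sites overlapped, so keeping 1 of any that overlap was not run. Low signal limits the lower sites, where many Ebf1-KO values were near the worth of 3 reads.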

Other observations

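The immunoglobulin and T cell receptor loci, delimited by their gene segments in GENCODE vM21 on GRCm38, were looked at after the values were seen. The kappa light chain locus (chr6:67555497-70726966) held 80 sites, of which 12 (15%, against 12.6% of all sites) were lower and none higher in Ebf1-KO than in Pax5-KO, at a median difference of -0.15. Its median signal per library was 0.78, 0.61 and 0.96 tags per 10 M in Ebf1-KO against 1.06, 0.80 and 0.87 in Pax5-KO, with WT at 5.23, 3.71 and 4.79, so that both knockouts were low and overlapped. Of its 12 lower sites, 8 were assigned to 4930515G16Rik. One of these, bound by both, had 1.56, 1.21 and 2.24 in Ebf1-KO against 18.7, 9.54 and 6.08 in Pax5-KO, with WT at 17, 10.3 and 15.3 (-2.11 ± 0.31, adjusted p 6.59e-08, limma). The heavy chain locus held 30 sites with 5 lower (16.7%) and 1 higher (3.33%), against 12.6% and 9.06% of all sites. The T cell receptor beta locus held 8 sites with 3 higher and none lower, at a median of 0.32. The alpha locus held 8 sites with 1 higher and 1 lower. The delta locus, which lies within it, held 2 with 1 lower, and none of 3 sites was called at the gamma locus. At the lambda light chain locus, 1 of 6 sites was higher and none lower. These numbers are too small to compare with all sites.

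On the X chromosome, 26 of 172 sites were higher and 16 lower, at a median of 0.20, against 1275 higher and 1800 lower of 14192 sites on the other chromosomes except Y, at a median of -0.03. Sex and genotype cannot be told apart here. Some sites near genes of all cells were called as well. A PAX5-only site in B2m, the light chain of MHC class I, had 9.73, 11.8 and 11.5 in Ebf1-KO against 3.88, 5.04 and 5.21 in Pax5-KO, with WT at 10.4, 10.8 and 10.6 (1.08 ± 0.28, adjusted p 0.00252, limma), while B2m RNA was 6356 in Ebf1-KO against 14142 in Pax5-KO, with WT at 4327. An EBF1-only site near Ywhaz, a 14-3-3 protein, had 1.17, 1.82 and 0.96 in Ebf1-KO against 7.05, 7.69 and 8.25 in Pax5-KO, with WT at 29.4, 12.8 and 24.1 (-1.92 ± 0.31, adjusted p 4.33e-07), and the RNA of Ywhaz was not called between the knockouts (adjusted p 0.98).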
